A study of Mus musculus with 3 samples.

Results

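Immediate-early genes were followed in single cells of the hypothalamic arcuate nucleus, which controls feeding, of male C57BL/6JRj mice aged 5 to 6 weeks. The 10 genes were taken by symbol from the 31253 genes listed in each of the 3 count matrices, and all 10 were found: Fos, Fosb, Jun, Junb, Egr1, Ier2, Nr4a1, Atf3, Dusp1 and Klf6. The mice differed in diet after weaning. Mice of the first library ate standard chow (SC) throughout the 15 days, those of the second changed after 10 days of chow to 5 days on a diet rich in fat and sugar (HFHS), and those of the third had HFHS food for all 15 days. Each library pooled tissue of 6 mice, so each diet has 1 library, no difference between diets has a replicate check, and diet cannot be told apart from the preparation of its library. All the tissue was digested with enzymes at 37 °C for 16 and then 12 minutes. No sample prepared without digestion was analysed here, so transcript levels in the animal and those acquired during digestion cannot be told apart.

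Immediate-early genes are transcribed within minutes of a stimulus and need no new protein for it, because the factors that switch them on already sit in the cell. Calcium, cyclic AMP and growth-factor signals reach them through the kinases of the MAPK family and through the factors CREB and SRF. Most of them encode transcription factors that act on a slower set of genes, and others encode enzymes or binding proteins that end the signal. In the hypothalamus Fos protein is the usual marker of neurons that have recently been active, and in glial and vascular cells the same genes respond to injury, cytokines and handling.

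Fos, Fosb, Jun and Junb encode subunits of AP-1, a paired leucine-zipper factor in which the Fos proteins bind DNA as partners of the Jun proteins. Egr1 and Klf6 are zinc-finger factors, Nr4a1 is an orphan nuclear receptor, and Atf3 is a leucine-zipper factor of the stress response. Dusp1 is a phosphatase that switches off MAP kinases. Ier2 encodes a small nuclear protein. Fos lies at chr12:85473890-85477273 on the plus strand of GRCm38, Jun at chr4:95049034-95052222 on the minus strand, Nr4a1 at chr15:101254269-101274795 on the plus strand and Dusp1 at chr17:26505590-26562128 on the minus strand. None of the 10 shared exon sequence with another gene on its own strand in GENCODE vM21, and none of the 31-base words in the last 500 bases of each gene occurred in another gene's transcripts. Jun, Junb and Dusp1 overlap exons of Junos, Prdx2 and Ergic1 on the opposite strand, and whether the counting used strand is not given in the sources used here.

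The stretch before the start site shows one feature that several of the genes share, the half-site of the cyclic AMP response element bound by CREB. RefSeq promoter windows of GRCm38.p6 matched 8 of the 10 genes, all but Egr1 and Ier2. The 250 bases before RefSeq's start site are shown for 4 genes, each with its highest mean level in another cell class, as described after them. The classes are tanycyte-like for Fos, microglia-like for Jun, OPC-like for Nr4a1 and endothelial-like for Dusp1. For Fos the range of tanycyte-like cells overlapped with that of microglia-like cells. TGACG, its reverse complement CGTCA, and TGACNTCA (N is any base) are in capitals, in the gene's own direction. The GENCODE spans of Nr4a1 and Dusp1 given above reach from the first to the last base of any transcript, so these 2 windows lie inside them. The motifs were chosen after the sequences had been seen.
Fos (chr12:85473640-85473889, plus strand): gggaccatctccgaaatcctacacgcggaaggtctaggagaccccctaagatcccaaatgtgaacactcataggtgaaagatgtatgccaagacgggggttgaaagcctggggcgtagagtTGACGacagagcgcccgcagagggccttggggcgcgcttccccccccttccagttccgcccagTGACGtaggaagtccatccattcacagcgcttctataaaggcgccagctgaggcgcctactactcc
Jun (chr4:95052223-95052472, minus strand): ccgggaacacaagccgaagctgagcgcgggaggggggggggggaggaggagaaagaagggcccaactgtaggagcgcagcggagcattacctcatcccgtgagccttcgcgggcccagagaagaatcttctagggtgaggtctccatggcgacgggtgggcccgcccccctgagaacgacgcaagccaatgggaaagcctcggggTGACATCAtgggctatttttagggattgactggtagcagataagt
Nr4a1 (chr15:101266596-101266845, plus strand): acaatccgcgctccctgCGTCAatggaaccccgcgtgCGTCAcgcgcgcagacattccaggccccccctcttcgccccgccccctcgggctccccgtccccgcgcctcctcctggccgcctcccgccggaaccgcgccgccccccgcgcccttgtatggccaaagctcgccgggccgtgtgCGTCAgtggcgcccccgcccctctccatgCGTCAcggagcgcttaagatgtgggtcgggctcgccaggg
Dusp1 (chr17:26508473-26508722, minus strand): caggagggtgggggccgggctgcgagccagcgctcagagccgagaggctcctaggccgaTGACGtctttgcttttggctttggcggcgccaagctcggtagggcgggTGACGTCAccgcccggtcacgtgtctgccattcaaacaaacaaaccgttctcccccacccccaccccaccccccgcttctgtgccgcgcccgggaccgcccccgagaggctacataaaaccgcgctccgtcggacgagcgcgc
TGACG or CGTCA stood in 6 of the 8 windows, those of Atf3, Dusp1, Fos, Fosb, Junb and Nr4a1, and in 17.8% of all 32851 windows of this length. The Nr4a1 window held 4 such half-sites and the Fos window 2. The full element TGACGTCA was in the Dusp1 window and in 1.55% of all windows. TGACNTCA, searched on both strands, was in the Dusp1, Jun and Klf6 windows and in 7.49% of all. The AP-1 site TGANTCA was in none of the 8, against 6.75% of all windows. A match describes the letters and does not show binding.

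Unique molecular identifiers (UMIs), each marking 1 captured transcript molecule, were counted in 21143 barcodes. After filtering, 14072 cells remained: 4845 from SC, 4045 from 5-day and 5182 from 15-day HFHS mice, with median depths of 5156, 5783 and 4131 UMIs. Cells were clustered without the 10 genes and without the related genes listed for this work, and clusters were called by the cell type whose markers led them, as X-like. The 10 classes with at least 100 cells in every library held 12993 cells, and the markers of each class were detected in full in its own class in every library. Levels are UMIs of a gene scaled to all UMIs of its class and library, as counts-per-million (CPM). Libraries were primed at the 3' end, so a count stands for a molecule whatever its length. Intervals are exact and at 95%, cover counting error only, and leave out the spread between cells and mice. Of the barcode sequences, 158 occurred in more than 1 library: 72 in SC and 15-day, 85 in 5-day and 15-day and 13 in SC and 5-day. Before filtering, those shared with the 15-day library had median depths of 86486.5 UMIs in SC and 77471 UMIs in 5-day. In the 15-day library they had 642.5 and 678 UMIs. Kept cells with a shared barcode numbered 195, and without them every difference called between diets was still called. In a sum over all kept cells, the mix of cell types and the level within each type cannot be told apart.

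Over all kept cells the 10 genes summed to 912 CPM (SC), 930 CPM (5-day) and 948 CPM (15-day). Beside this near-constant total stood a wide spread between cell types. Barcodes left out for mitochondrial UMIs summed to 210.2 CPM (SC), 214.9 CPM (5-day) and 203.3 CPM (15-day). Microglia-like cells, the resident immune cells of the brain, had the highest sums of the 10 classes, with 3041 CPM (SC), 3364 CPM (5-day) and 3290 CPM (15-day). Oligodendrocyte precursor (OPC)-like cells followed with 1121 to 1520 CPM over the 3 libraries, endothelial-like cells with 1209 to 1229 CPM, and tanycyte-like cells, the glia lining the floor of the third ventricle, with 1024 to 1241 CPM. Pericyte-like cells, which wrap the capillaries, had 795 to 1268 CPM. The ranges of these 4 classes overlapped, so their order is not set. Committed precursors of oligodendrocytes (COP-like cells) had 296 to 392 CPM, oligodendrocyte-like cells 264 to 347 CPM, neuron-like cells 224 to 372 CPM and ependymal-like cells 149 to 186 CPM. Astrocyte-like cells were lowest of the 10 classes in every library, at 107 CPM (SC), 113 CPM (5-day) and 128 CPM (15-day), and their range did not overlap with that of any other class.

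**Figure D1:**
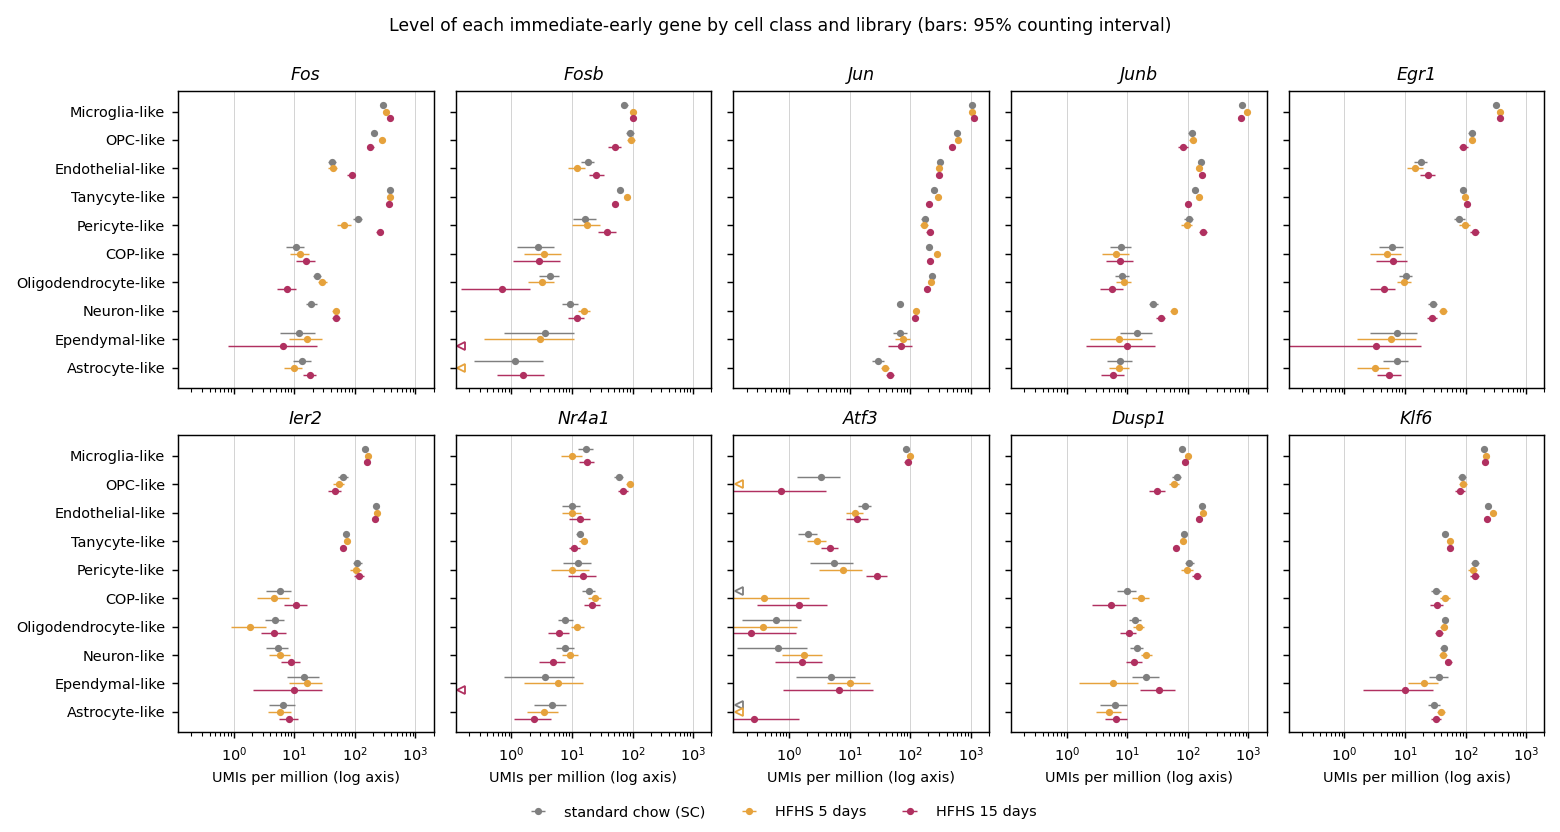
Level of each of the 10 genes (CPM, log axis) in the 10 cell classes, with 1 point per library (SC, 5-day HFHS, 15-day HFHS) and 95% counting intervals as bars. Open arrowheads mark sums of 0 UMIs. The highest class of each gene lies far from its lowest one (376 against 11.7 CPM on average for Fos), and the 3 points of a class mostly lie close together.

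The AP-1 genes divided the classes differently. Fos had 383, 386 and 360 CPM in tanycyte-like cells of the SC, 5-day and 15-day libraries and 292, 327 and 377 CPM in microglia-like cells, and these ranges overlapped. OPC-like cells had 207.5, 277 and 180.0 CPM of Fos, while ependymal-like cells had 12.1, 16.2 and 6.64 CPM. Fosb kept close to Fos across the classes (Pearson r = 0.97 over 30 class and library points, which share libraries and depth), with 52.0 to 79.9 CPM in tanycyte-like and 73.4 to 103 CPM in microglia-like cells. Jun was more widespread. It had 1045 to 1119 CPM in microglia-like, 484 to 608 CPM in OPC-like and 296 to 312 CPM in endothelial-like cells, 3 ranges that did not overlap, and still 29.6 to 47.0 CPM in astrocyte-like cells. Junb had 775, 928 and 760.4 CPM in microglia-like cells of the SC, 5-day and 15-day libraries. The next class, endothelial-like cells, had 151 to 173 CPM, and COP-like, oligodendrocyte-like and astrocyte-like cells had under 9 CPM in each library.

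The other genes differed in their leading class. Egr1 had 322, 369.5 and 366 CPM in microglia-like cells (SC, 5-day, 15-day), and OPC-like, pericyte-like and tanycyte-like cells followed with overlapping ranges between 79.1 and 140.4 CPM. Endothelial-like cells led for 3 genes: Ier2, with 222.5, 228 and 217 CPM (SC, 5-day, 15-day), Dusp1, with 174, 180.1 and 152 CPM, and Klf6, with 231, 279 and 223 CPM. Their ranges lay above those of the next class, microglia-like cells for Ier2 (148 to 166 CPM) and Klf6 (205 to 216 CPM) and pericyte-like cells for Dusp1 (96.8 to 140.4 CPM). Nr4a1 led in OPC-like cells at 58.7, 89.6 and 69.9 CPM and in COP-like cells at 19.0 to 23.7 CPM, and stood under 18 CPM in every other class. Atf3 was concentrated in microglia-like cells at 84.9 to 100 CPM over the 3 libraries. No Atf3 UMI was counted in astrocyte-like cells of the SC and 5-day libraries, where 3 UMIs, the limit that a count of 0 allows, would be 1.15 and 0.793 CPM.

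**Figure D2:**
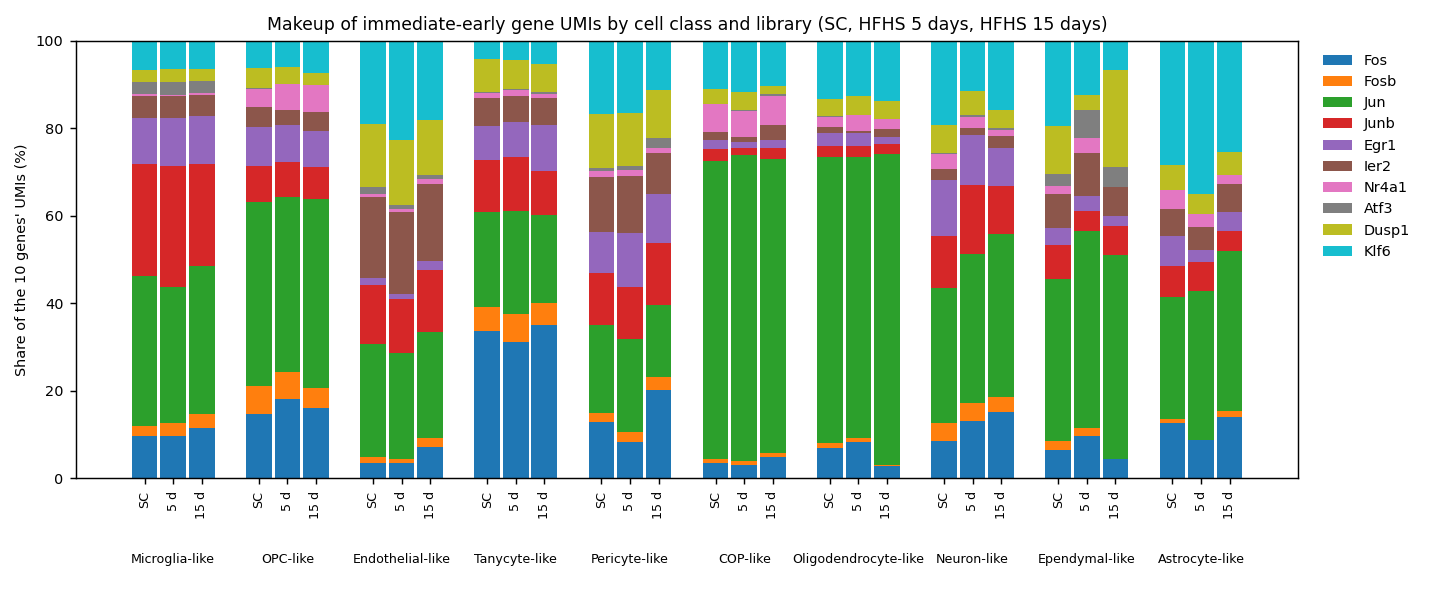
Share of each gene (%) in the UMIs of the 10 genes, stacked for each cell class and library (SC, HFHS 5 days, HFHS 15 days). Jun takes over 60% of the UMIs in COP-like and oligodendrocyte-like cells in each library, and Fos over 30% in tanycyte-like cells.

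The makeup of the 10 genes also differed between classes. Jun took 68.1%, 69.7% and 67.2% of their UMIs in COP-like cells of the SC, 5-day and 15-day libraries, and 65.3%, 64.2% and 71.1% in oligodendrocyte-like cells, where Fos held under 10%. Fos took 33.7%, 31.1% and 35.1% in tanycyte-like cells. In endothelial-like cells Fos held 3.47%, 3.55% and 7.17% of the UMIs.

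Within a class the genes were unevenly spread over cells. To compare shares of cells, each cell was thinned to 1000 UMIs and shallower cells were left out. This kept 4195 of 4523 SC cells, 3489 of 3766 5-day cells and 4295 of 4704 15-day cells of the 10 classes. Fos was then found in 11.1% (SC), 12.9% (5-day) and 18.3% (15-day) of microglia-like cells, in 15.1%, 16.0% and 12.3% of tanycyte-like cells and in 1.79%, 2.09% and 0.483% of oligodendrocyte-like cells. Neuron-like cells had 1.88%, 2.63% and 4.23%. No class is known to lack these genes, so the astrocyte-like cells, lowest in summed level, were taken for the most that free RNA in the droplets could give, at 1.06%, 0.650% and 1.42%. For Fos alone they were the lowest class only in the 5-day library. At 15 days they had 17.9 CPM of Fos, against 6.64 CPM in ependymal-like and 7.48 CPM in oligodendrocyte-like cells. Their Fos share is thus a loose limit in the SC and 15-day libraries. The oligodendrocyte-like share lay below the astrocyte-like one at 15 days and above it in the SC and 5-day libraries, where it was similar to the neuron-like share in the SC library. No order between libraries is read from shares this low. Without thinning, Fos was found in 27.6%, 26.7% and 37.0% of microglia-like cells, in 9.92%, 11.8% and 11.3% of neuron-like cells and in 3.68%, 3.75% and 4.23% of astrocyte-like cells. The median depths were 4460 to 5039 UMIs in microglia-like and 2694 to 3833 UMIs in astrocyte-like cells. Jun was the most widely detected in microglia-like cells, in 39.2%, 32.5% and 46.1% of the thinned cells, against 3.59%, 4.29% and 5.01% of astrocyte-like cells.

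UMIs of several of the genes met in the same cells. At least 3 of the 10 were found in 6.03% of the thinned SC, 5.90% of the 5-day and 5.61% of the 15-day cells of the 10 classes (28.6%, 28.1% and 22.0% without thinning). In microglia-like cells the shares were 19.8% (SC), 20% (5-day) and 27.2% (15-day), in tanycyte-like cells 8.70%, 7.52% and 5.41%, and in astrocyte-like cells 0.133%, 0% (0 of 769 cells, which allows up to 0.390%) and 0.0835%. The tenth of the thinned tanycyte-like cells with most UMIs of the 10 genes held 61.5%, 62.1% and 70.3% of those UMIs (SC, 5-day, 15-day). The shares were 53.6%, 54.9% and 65.2% in pericyte-like, 43.4%, 47.6% and 38.2% in microglia-like, 41.8%, 43.5% and 38.4% in OPC-like and 37.1%, 35.1% and 37.3% in endothelial-like cells. Pairs of the genes were compared where the product of their shares gave at least 5 cells, so the classes rest on different pairs. Such pairs were found in the same tanycyte-like cell a median of 3.54 times as often as that product gives, with 23 of 23 pairs above 1. The median was 1.93 in microglia-like cells (34 of 34 pairs), 1.61 in OPC-like cells (17 of 17 pairs) and 1.20 in endothelial-like cells (10 of 13 pairs). These ratios describe the thinned cells, with the libraries added up, and the part of the mix of clusters within a class was not tested.

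**Figure D3:**
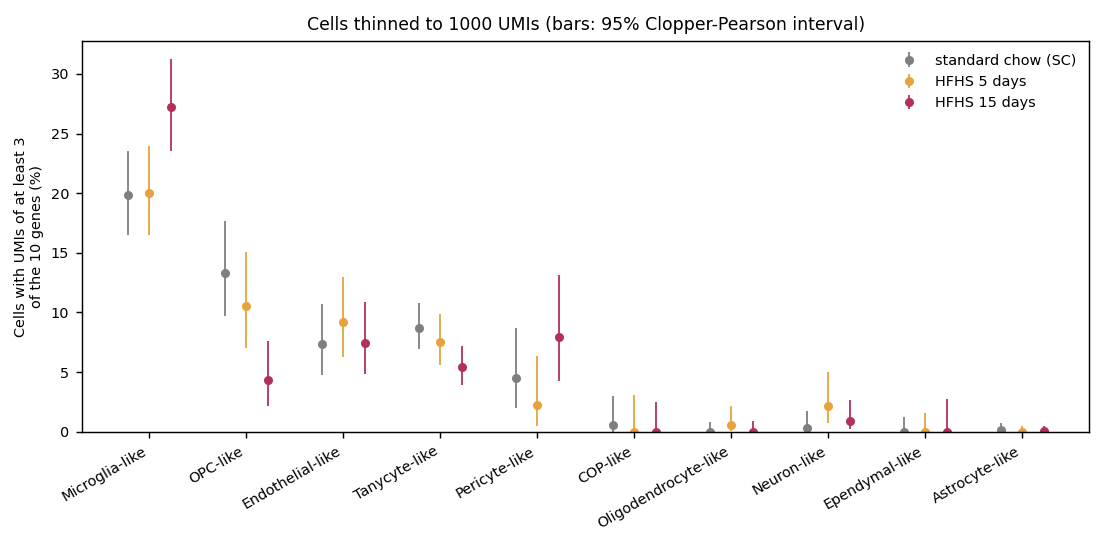
Share of cells (%) with UMIs of at least 3 of the 10 genes after thinning to 1000 UMIs, by cell class and library (SC, HFHS 5 days, HFHS 15 days), with 95% Clopper-Pearson intervals. Microglia-like cells stand highest in every library (19.8% to 27.2%), and OPC-like cells stand at 13.3% (SC) and 4.31% (15-day).

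Clusters within a class differed too. The microglia-like class joined a cluster with median depths of 5233 to 7928 UMIs and 3485, 3927 and 3590 CPM of the 10 genes (SC, 5-day, 15-day) and a shallower one with 1534 to 1779 UMIs and 186, 209 and 642 CPM. The deeper cluster made up 62.2%, 53.2% and 77.0% of the class. Within it, 29.9%, 36.2% and 33.7% of cells held at least 3 of the genes, highest at 5 days, while the share over the whole class was highest at 15 days. Tanycyte-like cells held a cluster with 1556, 1695 and 1146 CPM (SC, 5-day, 15-day) and one with 662, 768 and 367 CPM. A shallow one had 266, 421 and 2136 CPM, and 1 of its cells held 35.4% of its UMIs of the 10 genes over the libraries. A cluster of 254 cells with macrophage markers among its leading genes, too small in 2 libraries to be a class, reached 3468 to 3975 CPM. Microglial markers were found in more of its cells (Cx3cr1 in 80.3%, P2ry12 in 65%, Tmem119 in 52.8%) than macrophage markers (Mrc1 in 32.7%, Ms4a7 in 29.5%, Pf4 in 26.8%). Its levels are therefore not read as those of macrophages. Its Fos stood at 462, 476 and 698 CPM and its Atf3 at 285, 137 and 233 CPM.

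The question put by the diets was whether 5 or 15 days of HFHS feeding went with other levels of these genes in a given class. With 1 library per diet a difference was called by size alone. The gene needed 100 UMIs over the pair of libraries and 30 CPM in one of them, the levels had to differ 1.5-fold or more, and the counting interval had to lie beyond a 25% excess of one library over the other. Of the 100 combinations of gene and class, 51 reached the minimum at 5 days. Of these 3 were higher in the HFHS library and 0 lower, against 0.651% higher and 0.905% lower of all 51293 combinations of gene and class. At 15 days 49 reached it, 6 higher and 2 lower, against 1.61% and 2.17% of 50932. The 2 comparisons share the SC library and are not independent. Over the 71 combinations with at least 50 UMIs the median log2 ratio was 0.13 at 5 days, with 51 above 0 and 20 below. At 15 days it was 0.04 over 72 combinations, with 39 above and 33 below. The medians over all genes ran from -0.16 to 0.00 (5 days) and from -0.19 to 0.01 (15 days) in the 10 classes.

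**Figure D4:**
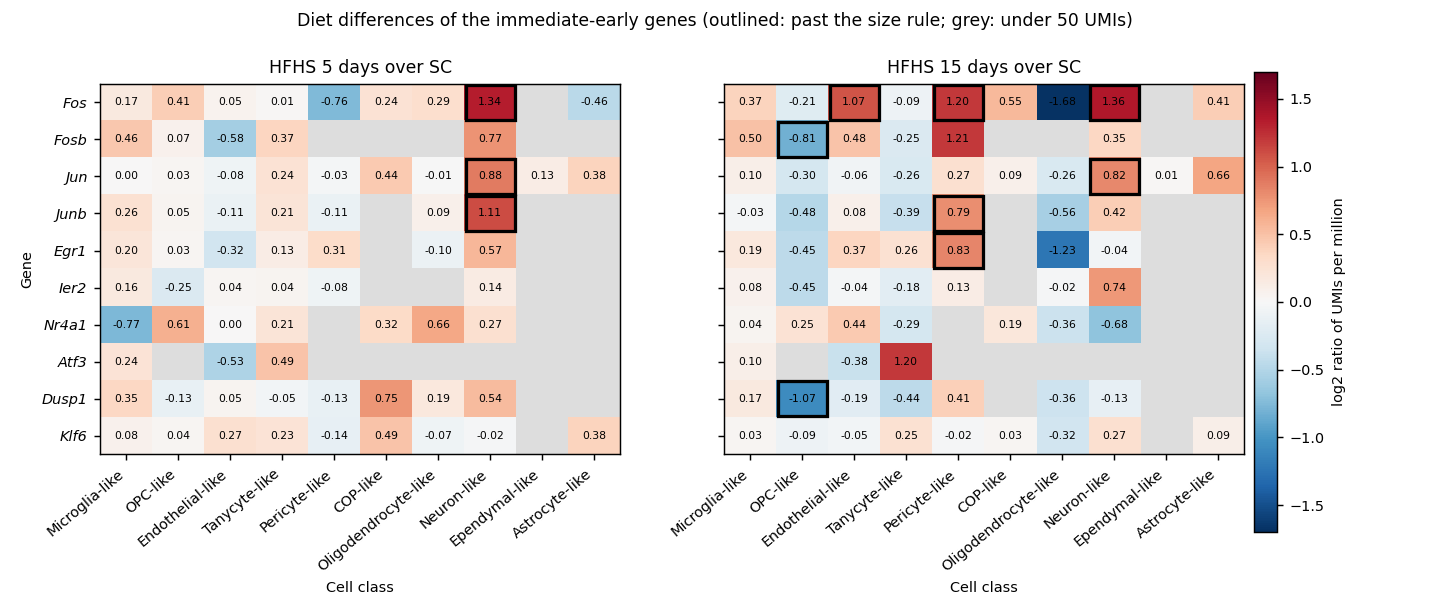
Log2 ratio of CPM for each gene (rows) and cell class (columns), HFHS 5 days over SC on the left and HFHS 15 days over SC on the right. Black outlines mark the 3 and 8 combinations past the size rule, and grey fields those under 50 UMIs.

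In neuron-like cells the 3 calls at 5 days were all AP-1 genes. Fos had 48.4 CPM in the 5-day and 49.3 CPM in the 15-day HFHS library, against 19.2 CPM in the SC library (222, 182 and 86 UMIs). Its log2 ratio to SC was 1.34 at 5 days (counting interval 0.97 to 1.71) and 1.36 at 15 days (0.99 to 1.75). Jun had 127 CPM (5-day) and 122 CPM (15-day), against 68.8 CPM (SC), with log2 ratios of 0.88 and 0.82. Both genes were past the size rule at both times. Over the 9 genes with enough UMIs the median log2 ratio was 0.57 at 5 days (8 above 0) and 0.35 at 15 days (6 above 0). Junb had 58.2 CPM at 5 days, against 27.0 CPM (SC), a log2 ratio of 1.11, while its 36.0 CPM at 15 days did not reach the rule. Egr1, with 42.5 CPM (5-day) and 27.9 CPM (15-day) against 28.7 CPM (SC), did not reach it, and Klf6 had 42.7 and 52.0 CPM against 43.2 CPM.

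The neuron-like class differed between the libraries in more than these genes. Of all its genes at 5 days, 3.23% were called higher and 4.25% lower, and at 15 days 5.3% and 11%. Its median log2 ratio over all genes was -0.16 at 5 days and -0.19 at 15 days, and scaling by TMM gave 0.02 and 0.01 and by the median of ratios 0.01 and 0.03, with every call kept. The class held 289 cells (5-day) and 406 cells (15-day), against 363 cells (SC). Its median mitochondrial share was 8.40% and 7.26%, against 11.7%, and its summed oligodendrocyte markers stood at 1855 and 939 CPM, against 2533 CPM. The part of these differences in the result was not tested.

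Subclusters of the neuron-like cells had very different levels. AgRP-like neurons, which drive feeding, held 31 cells in the 5-day and 34 cells in the 15-day library, against 6 cells in the SC library. Over the 3 libraries their 10 genes summed to 477 CPM and their Fos to 85.6 CPM. Within them Fos had 85.6 CPM (5-day, 115 UMIs) and 105.5 CPM (15-day, 78 UMIs), against 10.3 CPM from 2 UMIs (SC, interval 1.245 to 37.2 CPM), and 1 cell held 36.5% and 46.2% of the HFHS UMIs. A subcluster led by Cartpt, Gal and Pomc held 30 cells (5-day) and 70 cells (15-day), against 36 cells (SC). Its Fos had 49.8 CPM (5-day) and 17.6 CPM (15-day), against 17.2 CPM (SC), from 51, 25 and 19 UMIs. Glutamate-like neurons had 3.86 CPM of Fos in 89 cells. A small subcluster led by Rorb and Rgs16 reached 461 CPM of Fos in 52 cells, and one led by Cck, Rgs16 and Vipr2, with Avp among its leading genes, reached 202 CPM in 23 cells, of which 18 came from the 15-day library. In each of these 2 subclusters 1 cell held a large part of the Fos UMIs, 38.6% of 44 and 40.8% of 49. Subclusters 4 and 5 were led by precursor and oligodendrocyte genes. Subcluster 6, with 192 cells and a median depth of 921 UMIs, was led by Mbp and Mobp, which are myelin genes too. With the clusters held at a fixed mix, which left out AgRP-like and other rare cells, the log2 ratio at 5 days was 0.96 for Fos and 1.18 for Junb, still past the rule, and 0.34 for Jun, no longer past it. At 15 days Fos had 0.56 and Jun 0.29, neither past it. With every cell given equal weight, Jun had 0.065 at 5 days and 0.34 at 15 days, neither past it, while Fos kept its calls and Junb its call at 5 days. Among cells with at most 10% mitochondrial UMIs, Fos had 59.3 CPM (5-day) and 31.8 CPM (15-day), against 12.6 CPM (SC), and the 15-day log2 ratio was 1.34, but with under 100 UMIs the rule could not be applied.

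**Figure D5:**
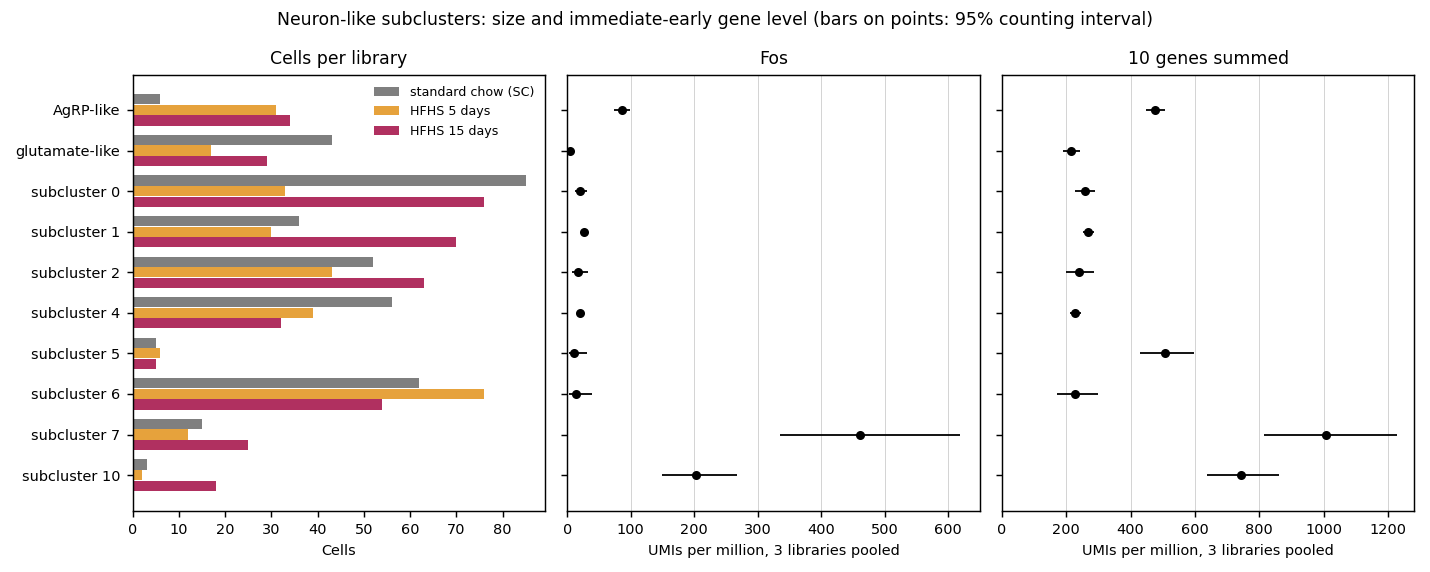
Neuron-like subclusters: number of cells per library (left), Fos level (centre) and summed level of the 10 genes (right), in CPM over the 3 libraries with 95% counting intervals. AgRP-like cells number 6 in the SC, 31 in the 5-day and 34 in the 15-day library, and the highest Fos levels stand in subclusters 7 and 10.

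In endothelial-like cells, which line the vessels, Fos alone of the 10 genes was past the size rule, and only at 15 days. It had 88.1 CPM in the 15-day HFHS library, against 42.0 CPM in the SC library (170 and 148 UMIs, log2 ratio 1.07, interval 0.74 to 1.4), and 1.74% of all genes of the class were called higher. The 5-day library had 43.6 CPM. Fos-positive cells among thinned cells were 5.57% (15-day) and 2.86% (5-day), against 1.83% (SC). Ier2, Dusp1 and Klf6, the genes that led in this class, had log2 ratios between -0.19 and 0.27 at both times. The median depth of these cells before thinning was 3749 UMIs at 15 days, against 7503 UMIs in the SC library.

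OPC-like cells had the 2 lower calls at 15 days. Dusp1, the phosphatase, had 31.2 CPM in the 15-day HFHS library, against 65.5 CPM in the SC library (42 and 136 UMIs, log2 ratio -1.07, interval -1.60 to -0.56). Fosb had 51.3 CPM, against 90.04 CPM (log2 ratio -0.81). The Fosb call was lost with at most 10% mitochondrial UMIs (-0.73), with the genes left in the clustering (-0.68) and after thinning. Among all genes of the class 0.862% were called lower. Of the 9 genes with enough UMIs, 8 were below SC at 15 days, with a median log2 ratio of -0.45 beside -0.06 over all genes of the class, and Nr4a1 was the one above, at 0.25. The share of thinned cells with at least 3 of the genes was 4.31% in the 15-day HFHS library (interval 2.17% to 7.59%), against 13.3% in the SC library (9.67% to 17.7%). The median depth of OPC-like cells before thinning was 5167 UMIs at 15 days and 6774 UMIs in the SC library. Among those with at most 5% mitochondrial UMIs the 10 genes summed to 1253 CPM at 15 days, against 1518 CPM (SC). Between 5% and 10% they summed to 885.6 CPM against 933.4 CPM, and between 10% and 20% to 477.7 CPM against 691.9 CPM. The lowest band held 154 of 273 cells at 15 days and 226 of 322 cells in the SC library. The part of this mix in the result was not tested. At 5 days no gene of the 10 passed the rule, with Fos at 277 CPM against 207.5 CPM (SC).

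In pericyte-like cells 3 genes were past the rule at 15 days, and 2 of them changed direction with the choice of cells. Fos had 256.5 CPM, Junb 179 CPM and Egr1 140.4 CPM in the 15-day HFHS library, against 111.5, 103.6 and 79.1 CPM in the SC library (log2 ratios 1.20, 0.79 and 0.83), while 1.14% of all genes of the class were called higher. With finer clusters, which left 154 of 180 15-day cells and 155 of 181 SC cells, Fos stood at 24.1 CPM (15-day), against 31.3 CPM (SC). Fos was likewise lower in the 15-day library with cells of at least 1000 detected genes clustered anew, at 24.9 CPM against 40.8 CPM (SC). Without doublet removal it had 34.8 CPM against 50.6 CPM (SC). With every cell given equal weight the log2 ratios were 0.50 for Fos, 0.20 for Junb and 0.17 for Egr1, none past the rule, and Egr1 was past it in 9 of 14 alternatives. At 5 days 6 of the 7 genes with enough UMIs were below SC. Fos had 66.0 CPM in the 5-day HFHS library, against 111.5 CPM (SC), a log2 ratio of -0.76 that was not called under the main settings and was called lower under 5 alternatives. The markers of vascular smooth muscle summed to 14060 CPM at 15 days, against 9929 CPM (SC), those of pericytes to 18070 CPM against 23840 CPM, and those of endothelial cells to 13630 CPM against 13140 CPM. Their part in the result was not tested.

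The other classes had no call under the main settings. In microglia-like cells 9 of 10 genes were above SC at each time. The median log2 ratio was 0.18 at 5 days and 0.10 at 15 days, beside -0.02 and -0.04 over all genes of the class. With the clusters of this class held at a fixed mix, Junb (-0.07), Nr4a1 (-0.005) and Klf6 (-0.01) were below SC at 15 days and the rest above. At 5 days the genes above SC stayed the same. In oligodendrocyte-like cells all 8 genes with enough UMIs were below SC at 15 days, by a median of -0.36 beside -0.02 over all genes of the class. Fos had 7.48 CPM in them at 15 days, against 23.9 CPM (SC), and Egr1 4.44 CPM against 10.4 CPM, both under the 30 CPM of the size rule, so that no call was possible. Tanycyte-like cells, with microglia-like cells the highest for Fos, had log2 ratios of Fos of 0.01 at 5 days and -0.09 at 15 days. Of the 10 genes in them, 9 were above SC at 5 days, by a median of 0.21 beside 0.00 over all genes of the class. At 15 days 7 of 10 were below, by a median of -0.22 beside -0.03, with Dusp1 at -0.44 and Junb at -0.39. With the clusters of this class held at a fixed mix, Fos had -0.26 at 15 days, and Junb (-0.63) and Dusp1 (-0.59) passed the rule as lower. Egr1 (0.03), Klf6 (0.25) and Atf3 (1.055) stayed above SC. Astrocyte-like cells had Jun at 47.0 CPM in the 15-day HFHS library, against 29.6 CPM (SC), which did not reach the rule. Jun did reach it with cells of at least 1000 detected genes clustered anew (log2 ratio 0.78, beside 0.66 under the main settings). With finer clusters, which gave the class 1264 cells at 15 days in place of 1252, the log2 ratios at 15 days were 1.28 for Jun and 3.33 for Fos, both past the rule, where Fos had 0.41 under the main settings. The class's level at 15 days therefore depends on the clustering, which also limits its use as a level for free RNA.

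Other genes of the same response were counted by the same rule over gene and class combinations. Of a list of 44 further rapid response genes, 141 combinations reached the minimum at 5 days, 4 higher (2.84%) and 0 lower. At 15 days 144 did, 3 higher (2.08%) and 5 lower (3.47%). Of all combinations 0.651% were higher and 0.905% lower at 5 days, and 1.61% and 2.17% at 15 days. Sgk1, a kinase, had 801.6 CPM in oligodendrocyte-like cells of the 5-day HFHS library, against 451 CPM (SC). Gadd45b and Gadd45g, stress-induced growth regulators, had 85.5 and 57.0 CPM in endothelial-like cells at 15 days, against 41.2 and 32.6 CPM (SC), where Dusp6, a phosphatase for the kinase ERK, had 50.3 CPM against 94.5 CPM. Btg2, an antiproliferative factor, had 36.8 CPM in neuron-like cells at 15 days, against 18.5 CPM, while Zfp36l1, an RNA decay factor, had 16.5 CPM against 32.5 CPM. In OPC-like cells Socs3, an inhibitor of cytokine signalling, had 18.6 CPM at 15 days, against 37.1 CPM (SC). In neuron-like cells the median log2 ratio of the list was -0.02 at 5 days and -0.10 at 15 days, beside -0.16 and -0.19 over all genes. In OPC-like cells at 15 days it was -0.21, with 16 of 20 genes below SC, beside -0.06 over all genes.

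Further activity genes of neurons (20 listed, not sorted by speed of response) had 3 combinations higher and 1 lower of 36 at 5 days. At 15 days 7 were higher and 4 lower of 41. These are 8.33% and 2.78% at 5 days, against 0.651% and 0.905% of all combinations, and 17.1% and 9.76% at 15 days, against 1.61% and 2.17%. Their median in neuron-like cells was -0.01 at 5 days and -0.09 at 15 days. The higher ones were Rgs2 and the neuropeptide or granule genes Tac1, Cartpt and Scg2. At 15 days 6 of the 7 higher ones stood outside the neuron-like class, and at 5 days Tac1 did so in COP-like cells. Neuropeptide UMIs outside the list were counted in the 9 other classes as a whole. Agrp had 11.4 CPM (SC), 8.62 CPM (5-day) and 21.0 CPM (15-day), Oxt 11.3, 43.1 and 6.51 CPM, and Avp 46.6, 20.2 and 27.1 CPM. Only Agrp of these was above SC at 15 days. The higher calls outside the neuron-like class are not read as expression in those classes. The part of free RNA in them was not tested. Nptx1 and Nptx2, which encode pentraxins of excitatory synapses, were lower in neuron-like cells at 15 days, with 34.9 and 21.4 CPM, against 69.1 and 45.5 CPM (SC), in a class where 11% of all genes were called lower. Of the 26 kinases and factors upstream, 0 of 128 combinations were higher at either time. At 5 days 1 was lower (0.781%, against 0.905% of all combinations). At 15 days 2 were lower (1.56%, against 2.17%), Mapk8 and Mapk14 in neuron-like cells. Among 18 other leucine-zipper genes, Jund in neuron-like cells (510.9 CPM at 5 days, against 328 CPM in the SC library) and Nfe2l2 in astrocyte-like cells were higher at 5 days. Mafg in neuron-like cells was lower at 15 days. The 2 higher ones are 2.90% of 69 combinations, against 0.651% of all, and the lower one is 1.39% of 72, against 2.17%. Jund is on the rapid response list too, where its call was also counted. Inhibitors of AP-1 and related factors (15 genes) had no call of 55 at 5 days. At 15 days 1 was higher (1.79%) and 3 lower (5.36%) of 56, against 1.61% and 2.17% of all combinations. Btg2, Dusp6 and Zfp36l1 are among these calls and were also counted on the rapid response list. Of 14 heat-shock genes, most of them cytosolic and not all induced by heat, 6 of 98 combinations were lower at 15 days and 0 higher. Among the lower ones was Hspa1a in tanycyte-like cells, with 27.9 CPM against 53.0 CPM (SC). The median log2 ratio of the heat-shock genes in tanycyte-like cells was -0.28 at 15 days, beside -0.03 over all genes. In that class 0.535% of all genes were called lower, against 2.17% over the 10 classes and 6.12% of the heat-shock combinations. At 5 days 1 of 104 combinations was higher and 1 lower (0.962% each), against 0.651% and 0.905% of all. In neuron-like cells the median of the heat-shock genes was 0.27 at 5 days, with 10 of 13 genes above SC, and 0.22 at 15 days, with 8 of 13 above, beside -0.16 and -0.19 over all genes. Their part in the neuron-like result for the immediate-early genes was not tested.

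The genes most like the 10 across classes were found by Pearson correlation over 30 points, each a class in a library, on log2(CPM + 10). The points share libraries and depth. Ccdc12 stood closest to the sum of the 10 genes (r = 0.90 of 13969 genes), followed by Cdca7, Acvr1, Ier3, Tmed9, Btg2, H2-M3 and Ppp1r15a, down to r = 0.83. Single genes had closer partners: Fosb and Egr1 for Fos (0.97 and 0.93), Btg2 for Junb (0.92), Cebpd for Ier2 (0.95), Ier3 for Klf6 (0.94), Fam89a for Nr4a1 (0.91), Dctpp1 for Jun (0.90) and Il6ra for Atf3 (0.96). Within class and library, over cells, Btg2 had the highest mean correlation with the sum (0.22 over 17 class and library points), and the next, Malat1, had 0.11.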

How the data were processed

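Single-cell libraries (10x Genomics 3' chemistry) were made from pooled arcuate nuclei of 6 mice per diet, per the labels' protocols. The authors deposited raw UMI counts per gene and cell barcode, 1 matrix per library. The submitters' processing notes name Cell Ranger, SAMtools, Scanpy 1.4.4 and the build GRCm38. The gene annotation and strand setting are not given in the sources used here. No column of unknown sample was found.

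Barcodes were kept from 500 detected genes up and from 20% mitochondrial UMIs down. Scrublet's automatic call marked 0%, 0% and 1.87% of barcodes and so did not work; the barcodes with the highest scores (0.8% per 1000 barcodes, 405, 307 and 489) were removed instead. Counts were clustered with Scanpy 1.11.5 (3000 variable genes, 40 components, 15 neighbours, Leiden resolution 1, no integration of libraries) under Python 3.11.15, leaving out the 10 genes and the listed related genes. Clusters were named X-like where at least 3 of a class's markers were among their 50 leading genes and no other set had more among the top 10. Clusters with over 90% of their cells from 1 library stayed unnamed and outside the classes. These had 53, 44 and 36 cells, of which 49, 44 and 36 came from the 15-day library. UMIs were summed per class and library. Poisson, conditional binomial and Clopper-Pearson intervals came from SciPy 1.17.1. TMM factors came from edgeR 4.0.16 as an alternative scaling only. The size rule and its intervals were tested on Poisson counts simulated from the astrocyte-like and microglia-like sums. Such counts follow the model of the intervals, so they do not show how the rule handles UMIs concentrated in few cells.

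The genes studied and the lists were chosen with earlier results of these data known. All 10 genes are named; of each other list, the genes named are among the 3 with the largest ratio per comparison and direction; of genes alike in pattern, the 8 closest to the sum. The closest partner of each single gene, the AgRP-like and other subclusters, and the genes under the 30 CPM minimum were chosen after their values were seen. Alternatives are reported in the closing section.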

Additional observations from a re-analysis of the deposited data

How the results depend on the processing

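The ratios of each gene and class, their calls, counts and medians and the share of cells with at least 3 genes were recomputed under 16 alternatives in all, 14 of them for the ratios. List counts, co-detection, cluster levels, correlations and promoter counts were not. The one that leaves out barcodes shared between libraries was chosen after seeing the data. Where filters, doublet removal or clustering changed, the cells were clustered and named anew, so the cells of each class could change too. No paired analysis was possible because each diet has 1 library. Of the 11 calls, Fos and Junb in neuron-like cells at 5 days, Fos in endothelial-like and Dusp1 in OPC-like cells at 15 days were past the rule in 13 of 14 alternatives each, all but thinning to 1000 UMIs, where 18 and 19 combinations reach the minimum. The other calls held in 8 to 11 of 14. In pericyte-like cells at 15 days Fos turned to -0.71 with at least 1000 genes, -0.54 without doublet removal and -0.37 at resolution 2. Junb there turned to -0.33, -0.50 and -0.47 under the same settings and to -0.14 with at most 10% mitochondrial UMIs. The cause was not tested.

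The counts past the rule were 3 higher and 0 lower at 5 days, and 6 higher and 2 lower at 15 days. Thinning gave 0 higher at both times and 0 lower at 15 days. At most 10% mitochondrial UMIs gave 5 higher at 5 days, and 3 higher and 1 lower at 15 days. No doublet removal gave 5 higher at 5 days and 3 at 15 days. Lower calls at 5 days numbered 1 with at least 250 genes, without the top cell, without shared barcodes and with no minimum, and 2 with equal weight per cell or a fixed mix. At 15 days they numbered 1 with the genes left in the clustering, 4 at resolution 2 or a fixed mix, and 5 with no minimum. The median log2 ratio was 0.022 at 5 days with equal weight, and -0.035 (10% mitochondrial limit) and -0.0064 (resolution 2) at 15 days. Differences not called in the report passed the rule under 5 alternatives each: Jun in COP-like cells (higher) and Fos in pericyte-like cells (lower) at 5 days and Junb in tanycyte-like cells (lower) at 15 days. Equal weight per cell ended the calls of Jun in neuron-like and of Fos, Junb and Egr1 in pericyte-like cells. Both scalings kept every call and added Egr1 in neuron-like cells at 5 days (0.75 and 0.74).

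The share of cells with at least 3 of the genes was 7.64% (SC), 7.72% (5-day) and 7.77% (15-day) at the 10% mitochondrial limit, 13.04%, 13.1% and 12.6% thinned to 2000 UMIs, and 28.6%, 28.1% and 22.0% not thinned. At 15 days it was 6.59% with at least 250 genes, 6.42% without doublet removal and 6.66% with the genes left in the clustering. Depth limits the low levels of Atf3, Nr4a1 and Fosb, and in ependymal-like cells most of the genes had under 50 UMIs.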
